A study of Saccharomyces cerevisiae with 10 samples.

Results

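Transcripts of 10 covalently linked cell wall proteins of budding yeast were followed in 10 mRNA-seq libraries. The genes were taken by their systematic names from the 7218 targets of the deposited tables, and all 10 were found and passed the filter on low counts that left 6390 genes for testing. Of the 10, 7 encode mannoproteins made with a glycosylphosphatidylinositol (GPI) anchor, namely CWP1 (YKL096W), CWP2 (YKL096W-A), TIP1 (YBR067C), SED1 (YDR077W), SPI1 (YER150W), CCW12 (YLR110C) and CCW14 (YLR390W-A). The other 3, PIR1 (YKL164C), HSP150 (YJL159W, also called PIR2) and PIR3 (YKL163W), encode proteins with internal repeats (PIR).

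All libraries came from diploids of strain BY4743, a laboratory strain that lacks HIS3, LEU2 and URA3 on both homologues, taken in mid-logarithmic growth in rich medium (YPD). The 5 groups of 2 replicates were [ESI+] diploids, homozygous diploids lacking HOS2, SET3 or SNT1, and naive diploids, the group against which the others were set. [ESI+] is a prion-like state, passed on through cell division, that relieves silencing close to chromosome ends. HOS2, SET3 and SNT1 encode subunits of the Set3 complex, a histone deacetylase complex. The labels do not say whether replicates came from separate cultures. A p-value here therefore reflects the spread between the 2 libraries of a group, estimated over all 5 groups together, and that spread may be technical.

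The yeast wall is a layer of glucan and chitin covered by mannoproteins. GPI mannoproteins pass through the secretory pathway, are cut from their lipid anchor at the plasma membrane and are joined to beta-1,6-glucan, whereas PIR proteins are joined to beta-1,3-glucan by an alkali-sensitive bond. Many of their genes are read at a set phase of the cell cycle, or are induced by wall damage through the kinase Slt2 and the transcription factor Rlm1, or by general stress and nutrient depletion.

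Total estimated counts ran between 8327735 (set3 deletion replicate 2) and 80651761 (set3 deletion replicate 1) per library. ERCC spike-in RNAs took 0.946 to 5.19% of a library and ribosomal RNA 8.62 to 28.0%. HOS2 had 3 and 0 counts, SET3 2 and 0 counts and SNT1 1 and 4 counts in the libraries labelled as lacking them, against at least 64, 51 and 504 counts in any other library. Of 12 genes that diploids repress or read little (pheromone, receptor and mating genes), 7 stayed under 5 CPM (counts scaled to library size) in all 10 libraries, and the highest value of any was 15.1 CPM for FAR1, beside a median of 13.3 CPM over all genes tested. Nuclear genes that are silent elsewhere in the series had medians of 0.361 (replicate 1) and 2.26 (replicate 2) CPM per kb in [ESI+], and no more than 0.0888 in any library of another group. Reads at that rate would make up at most 4.30% of a member's count in [ESI+].

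Parts of 3 upstream regions are shown because their genes carry the results below. SPI1 and PIR3 passed the test in both the hos2 and the set3 deletion, and CCW12 is the most abundant member and had one of the 2 lowest fold changes in [ESI+]. Each run covers bases 350 to 101 before the start codon, on the strand of the gene, read from the R64 genome of RefSeq. The windows are chrV:468020-468269 (plus) for SPI1, chrXI:144051-144300 (plus) for PIR3 and chrXII:370199-370448 (minus) for CCW12. That of CCW12 overlaps the annotated gene YLR111W. Capitals mark matches, on either strand, to 3 short motifs as they were searched. These were the stress response element (AGGGG), the Swi4 motif (CNCGAAA) and the Rlm1 motif. The Rlm1 motif was searched loosely, as CTA and TAG with any 4 bases between. No 2 matches overlap in these windows.
SPI1: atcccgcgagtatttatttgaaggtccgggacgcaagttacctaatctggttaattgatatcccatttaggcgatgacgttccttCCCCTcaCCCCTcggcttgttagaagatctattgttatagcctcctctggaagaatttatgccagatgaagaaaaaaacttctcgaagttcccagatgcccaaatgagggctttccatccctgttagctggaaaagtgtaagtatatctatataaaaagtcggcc
PIR3: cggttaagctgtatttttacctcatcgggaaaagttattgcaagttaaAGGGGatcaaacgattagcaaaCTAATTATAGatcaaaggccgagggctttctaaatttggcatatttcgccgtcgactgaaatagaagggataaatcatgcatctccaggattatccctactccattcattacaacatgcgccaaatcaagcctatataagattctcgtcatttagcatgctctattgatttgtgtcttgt
CCW12: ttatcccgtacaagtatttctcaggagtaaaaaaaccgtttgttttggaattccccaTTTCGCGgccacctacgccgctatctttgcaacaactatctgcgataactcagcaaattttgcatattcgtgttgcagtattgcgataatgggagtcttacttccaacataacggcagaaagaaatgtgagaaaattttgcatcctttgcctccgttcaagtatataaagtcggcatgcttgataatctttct

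Within 500 bases before the start codon, SPI1 held 3 stress response elements, the most of any member, and the Swi4 motif was found in CWP1, CWP2, CCW12 and CCW14. The stress response element was in 7 of 10 members and in 34.1% of 6000 nuclear protein-coding genes. The Swi4 motif was in 4 of 10 and 22.0%, and the Rlm1 motif in 5 of 10 (CWP1, SED1, CCW14, HSP150 and PIR3) and 9.27%. TIP1 held none of the 3. These are matches of letters, not sites shown to be bound.

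The members lie on chromosomes II, IV, V, X, XI and XII, each with 1 coding exon, and the closest to a chromosome end was SPI1, 108 kb away. CWP2 (XI, 259253 to 259531) is followed by CWP1 (261132 to 261851) with 1600 bases between them. PIR1 (XI, 141794 to 142819) and PIR3 (144401 to 145378) diverge from a shared region of 1581 bases. HSP150 (X, 120449 to 121690) lies between PIR5 and CIS3, 2 other genes of the PIR family. The GPI genes shared no 31-base word with another coding sequence. Of the 31-base words of PIR1 10.9% occur in PIR3, of those of PIR3 11.2% occur in PIR1, and of those of HSP150 3.11% occur in CIS3, so the counts of these 3 genes rest in part on how shared reads were divided.

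Levels were first compared per length, in the deposited TPM (transcripts scaled by effective length and library; mean ± SD, n = 2 in each group). CCW12, which encodes a protein of growing wall regions, was the highest member in every group. It had 10122 ± 1481 TPM in [ESI+], 13840 ± 751 TPM in the hos2 deletion, 14086 ± 1560 TPM in the set3 deletion, 23032 ± 5156 TPM in the snt1 deletion and 22495 ± 4558 TPM in naive. CWP2, a small mannoprotein, had 3725 ± 234 TPM in [ESI+], 5601 ± 588 TPM in the hos2 deletion, 5764 ± 718 TPM in the set3 deletion, 7725 ± 1069 TPM in the snt1 deletion and 9661 ± 3401 TPM in naive. Both were lowest on average in [ESI+].

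SED1, a mannoprotein abundant in stationary phase, had 3024 ± 340 TPM in [ESI+], 3167 ± 794 TPM in the hos2 deletion, 2920 ± 993 TPM in the set3 deletion, 3903 ± 324 TPM in the snt1 deletion and 5504 ± 676 TPM in naive. HSP150, named for its induction by heat, had means from 1851 TPM (set3 deletion) to 2723 TPM (naive), with 2117 TPM in [ESI+]. CCW14, a protein of the inner wall layer, had means from 643 TPM ([ESI+]) to 1024 TPM (snt1 deletion). The order CCW12, CWP2, SED1, HSP150, CCW14 was that of the mean levels in every group.

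The lower 5 genes were closer together. In [ESI+] PIR1 had 437 ± 116 TPM, TIP1 373 ± 14.5 TPM, CWP1 333 ± 78.7 TPM, SPI1 169 ± 8.30 TPM and PIR3 35.2 ± 14.0 TPM. In naive TIP1 had 550 ± 75.2 TPM, CWP1 456 ± 33.7 TPM, PIR1 421 ± 29.3 TPM, SPI1 316 ± 109 TPM and PIR3 32.1 ± 0.364 TPM. PIR3 was the lowest member in every group, at 13.7 to 35.2 TPM on average. Among neighbours in the naive order of all 10, CWP1 and PIR1 were the one pair whose libraries overlapped.

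Summed over the 10 members, the TPM level was 20978 ± 2545 in [ESI+], 26734 ± 1493 in the hos2 deletion, 26692 ± 864 in the set3 deletion, 39394 ± 7263 in the snt1 deletion and 43166 ± 8405 in naive diploids. All libraries of the first 3 groups lay below both naive libraries, while those of the snt1 deletion overlapped with naive. Of estimated counts other than spike-in and ribosomal RNA, the members took 1.34 and 1.53% in [ESI+], against 3.05 and 2.36% in naive. TPM was scaled over spike-ins and ribosomal RNA too, and no test was made on the sums.

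**Figure D1:**
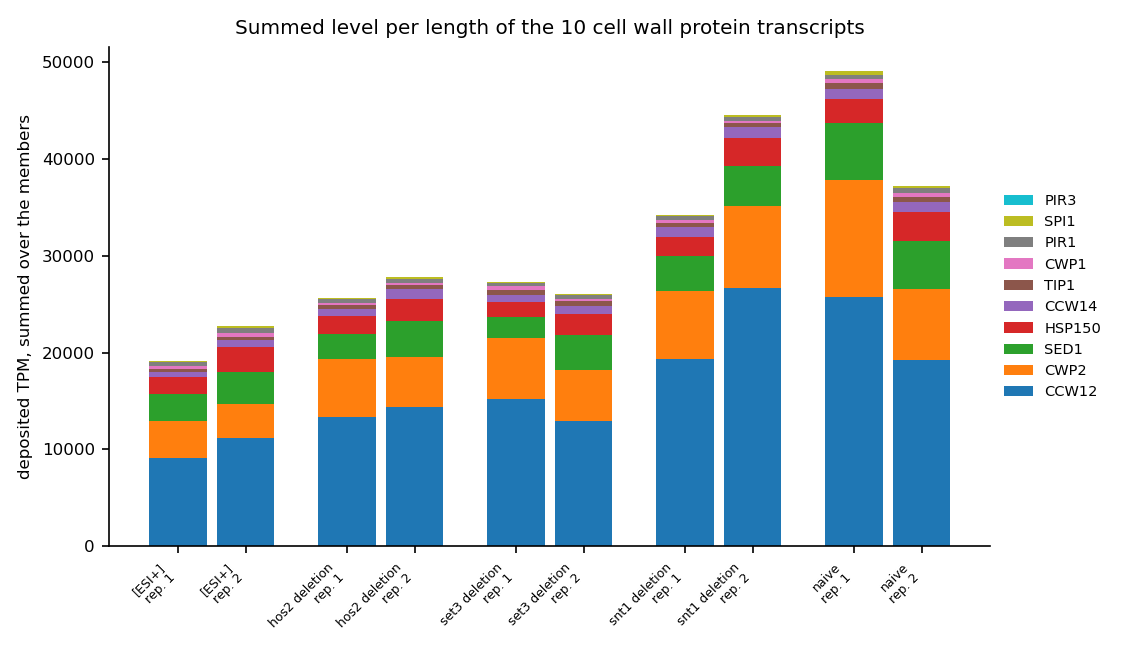
Deposited TPM of the 10 members stacked for each library (vertical axis, from 0), with [ESI+] and the deletions left of naive. The [ESI+] bars reach 19178 and 22778 TPM and the naive bars 49110 and 37223 TPM, and CCW12, CWP2 and SED1 make up most of each bar.

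Set against naive diploids to find transcripts that change with the prion-like state, [ESI+] had 8 of the 10 wall protein transcripts fall and none rise. All 7 GPI mannoprotein genes and 1 of the 3 PIR genes, HSP150, passed. Of all 6390 genes, 14.5% were called lower and 13.9% higher (edgeR's quasi-likelihood test, Benjamini-Hochberg adjusted p under 0.05, here and below). The median log2 fold change was -1.62 over the GPI genes, -0.74 over the PIR genes and 0.093 over all genes tested. In bulk RNA, fewer cells that express a gene and less RNA per cell cannot be told apart.

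CWP2 had 504 and 399 CPM in the [ESI+] libraries, against 2585 and 1847 CPM in naive libraries. Both [ESI+] libraries lay far below both naive ones, and CWP2 fell to 20.4% of the naive level (log2 fold change -2.29 ± 0.30 SE, adjusted p = 0.000780). CCW12 had 2196 and 2333 CPM in [ESI+], against 9413 and 9169 CPM in naive. In CPM the replicates of each group lay close together, and CCW12 fell to 24.4% (-2.04 ± 0.34, adjusted p = 0.00205). In deposited TPM its replicates lay further apart, at 9075 and 11170 in [ESI+] and 25718 and 19272 in naive. SPI1, a wall protein of late growth and weak acid resistance, had 46.7 and 43.3 CPM in [ESI+], against 166 and 133 CPM in naive. The groups did not overlap and SPI1 fell to 30.1% (-1.73 ± 0.24, adjusted p = 0.00115). SED1, whose product resembles Spi1, had 2379.8 and 2461 CPM in [ESI+], against 6849 and 8009.6 CPM in naive, and fell to 32.6% (-1.62 ± 0.32, adjusted p = 0.00481).

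The remaining GPI genes fell by smaller amounts, again with no overlap of libraries. CCW14 fell by 1.46 ± 0.29 on the log2 scale (adjusted p = 0.00479), with 308 and 356 CPM in [ESI+] against 769 and 1062 CPM in naive. TIP1, a temperature-inducible mannoprotein, fell by 1.36 ± 0.25 (adjusted p = 0.00356), and CWP1, a mannoprotein known from birth scars, fell by 1.26 ± 0.32 (adjusted p = 0.0152). Among PIR genes, HSP150 had 1826 and 2428 CPM in [ESI+], against 3477 and 6039 CPM in naive, and fell by 1.16 ± 0.38 (adjusted p = 0.0389). The naive libraries of HSP150 differed 1.74-fold from each other. Calls of CWP1 and HSP150 held least well. Over 11 alternative settings with 2 libraries a group CWP1 passed in 8 and HSP150 in 7, against 10 for each other gene called. Over all alternatives, fits without 1 library included, CWP1 came as near to 0 as -0.47 and HSP150 as -0.34. PIR1 (-0.74 ± 0.28, adjusted p = 0.0684) and PIR3 (-0.66 ± 0.27, adjusted p = 0.0834) did not pass, and their sign depended on scale: PIR1 had 0.045 with spike-in sizes, and PIR1 and PIR3 had 0.030 and 0.074 on log2(TPM + 1). In CPM, all 10 members had both [ESI+] libraries below both naive ones, as did 32.5% of all genes tested. In deposited TPM the groups overlapped for the 3 PIR genes. HSP150 had 1691 and 2543 TPM in [ESI+], against 2431 and 3015 TPM in naive. PIR1 had 355 and 519 TPM in [ESI+] against 400 and 441 TPM in naive. PIR3 had 25.3 and 45.1 TPM in [ESI+] against 31.8 and 32.3 TPM in naive.

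Without [ESI+] replicate 2 the number called was 3 (CWP2, CCW12 and SPI1), and with library sizes set by spike-ins it was 0, where the median of all genes stood at 0.80 and that of the members at -0.61.

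**Figure D2:**
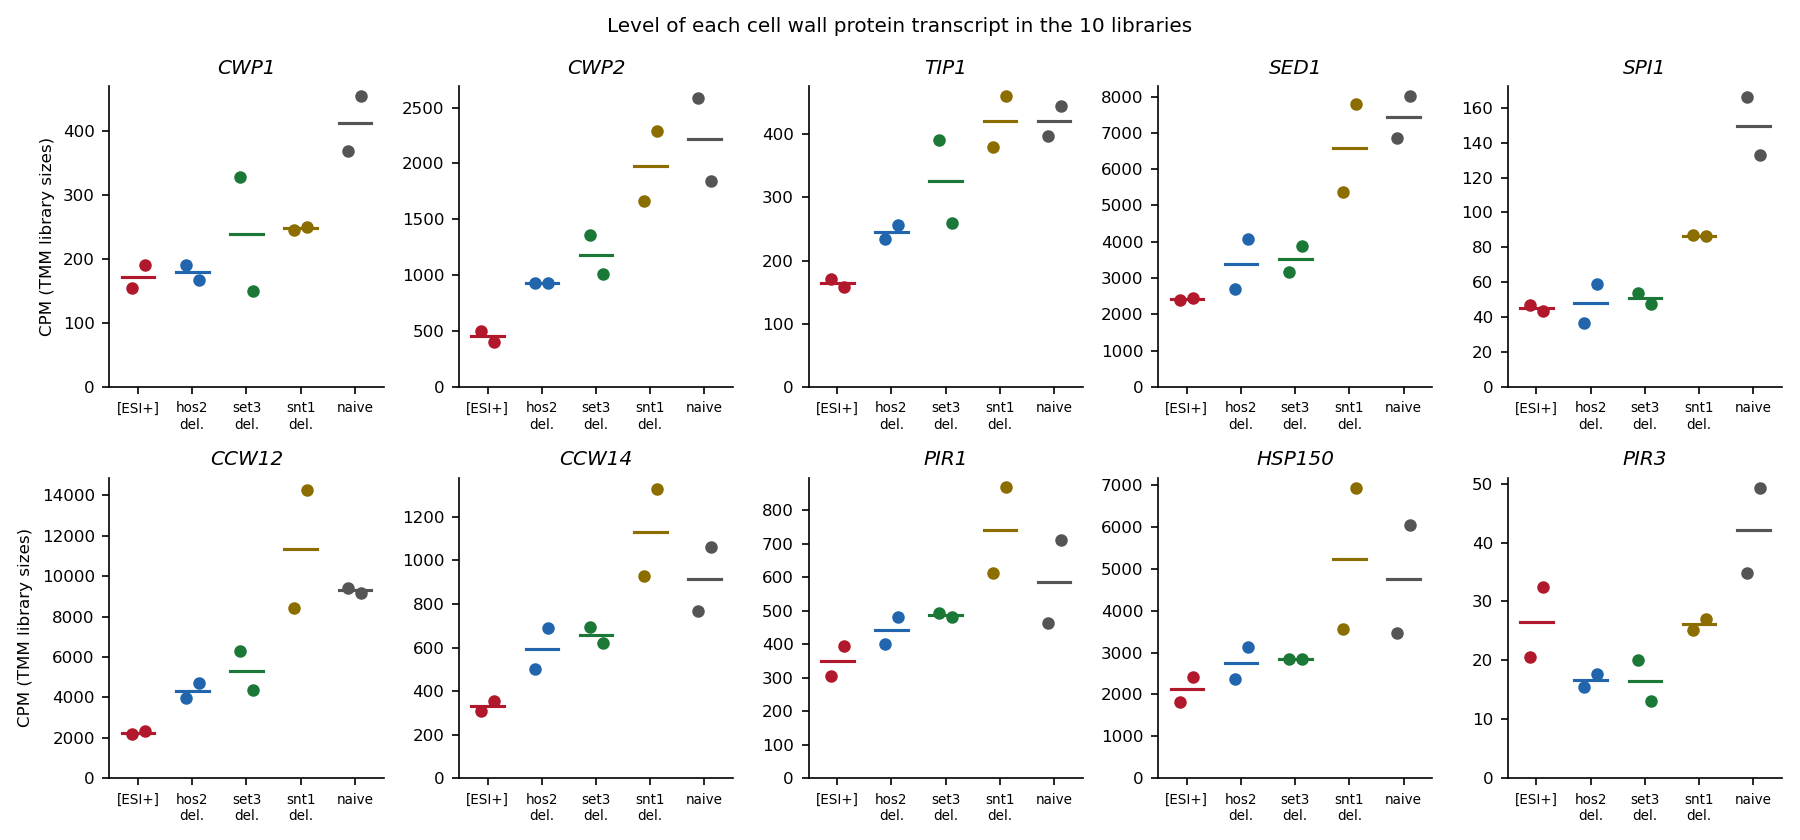
CPM of each member (vertical axis, from 0, scaled per panel) in the 2 libraries of each group (points) with their mean (line), naive at the right. For all 10 genes both [ESI+] points lie below both naive points. The range spanned by the snt1 deletion points overlaps that of the naive points except for CWP1, SPI1 and PIR3.

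Coding length moved with the fold changes in [ESI+]. The 1133 nuclear genes of up to 450 bases had a median of -0.22, and the 1627 genes over 1800 bases had 0.41. CWP2 (279 bases), CCW12 (402 bases) and SPI1 (447 bases) are in the shortest class and had -2.29, -2.04 and -1.73. The members of 901 to 1350 bases, SED1, PIR1, HSP150 and PIR3, had -1.62, -0.74, -1.16 and -0.66, where the class median was -0.0046. With each library's trend on length removed, 8 members still passed and the values were -2.11 for CWP2, -1.87 for CCW12 and -1.54 for SPI1. With silent-gene reads subtracted as well, 6 passed, and CWP1 and HSP150 did not. Effective length, the number of positions a fragment can start from, was 129 and 126 bases for CWP2 in [ESI+] and 169 and 140 bases in naive, a difference that TPM takes into account. On log2(TPM + 1), where the median of all genes was 0.74, CWP2 had -1.33 and CCW12 -1.14, and 6 members passed by limma-trend. CWP1 (-0.47) and HSP150 (-0.38) did not. The part of fragment length in these values was not tested further.

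**Figure D3:**
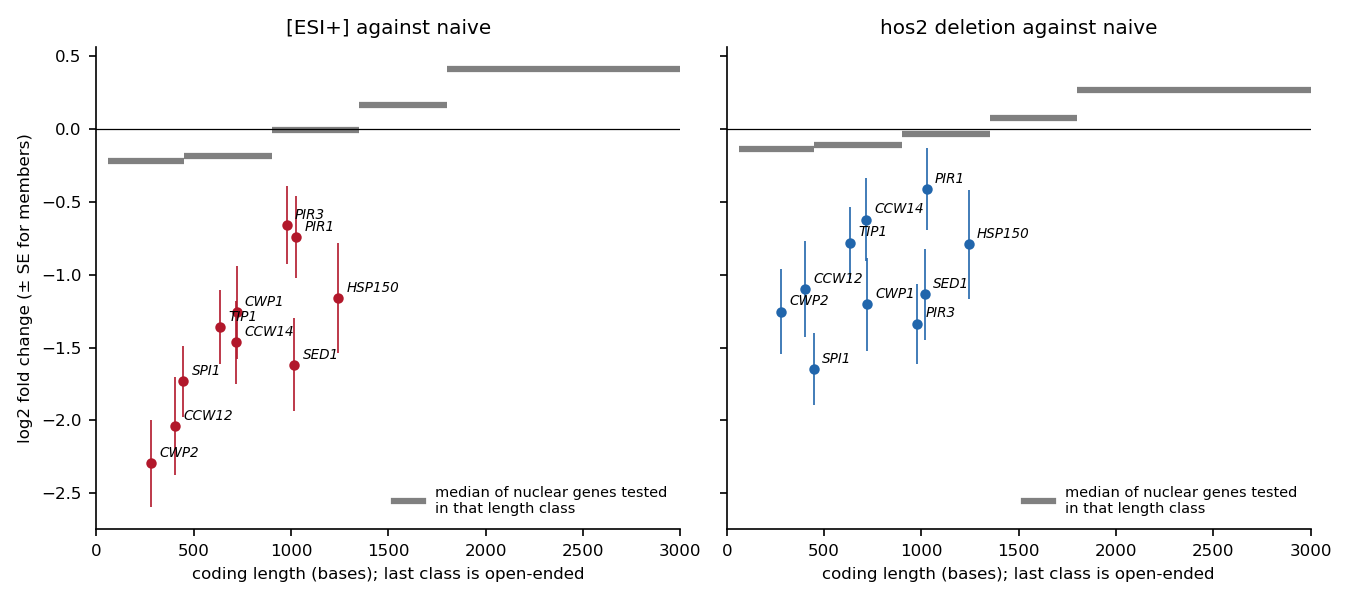
Log2 fold change against naive (vertical axis, ± SE) of each member by coding length in bases (horizontal axis) for [ESI+] and for the hos2 deletion, with the median of nuclear genes in 5 length classes as grey bars. Every member lies below the bar of its class, from -0.66 (PIR3) to -2.29 (CWP2) in [ESI+].

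The hos2 deletion was set against naive to find transcripts that depend on the deacetylase subunit, and 5 members fell and none rose. They were the GPI genes SPI1, CWP2, CWP1 and SED1 and the PIR gene PIR3. Of all genes 4.69% were called lower and 2.96% higher. The median log2 fold change was -1.14 over the GPI genes, -0.79 over the PIR genes and 0.027 over all genes, and all 10 members lay below 0.

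SPI1 had 36.9 and 58.8 CPM in the hos2 deletion, against 166 and 133 CPM in naive, and fell to 31.9% (-1.65 ± 0.24, adjusted p = 0.00403). PIR3 had 15.5 and 17.8 CPM in the hos2 deletion, against 34.9 and 49.2 CPM in naive, and fell to 39.6% (-1.34 ± 0.27, adjusted p = 0.0168). Both genes had their hos2 deletion libraries well under the naive ones. The divergent neighbour of PIR3, PIR1, had 400.2 and 482 CPM in the hos2 deletion, against 462 and 711 CPM in naive, and these groups overlapped (-0.41 ± 0.28, adjusted p = 0.412). The difference between the 2 genes was not tested. Of the 31-base words of PIR3, 11.2% occur in PIR1, which had far more CPM in both groups. The estimated counts of PIR3 were not whole numbers in 10 of 10 libraries. Its fall thus rests in part on how shared reads were divided, and that part was not tested.

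CWP2 had 928 and 931 CPM in the hos2 deletion, against 2585 and 1847 CPM in naive, and fell by 1.25 ± 0.29 (adjusted p = 0.0269). CWP1 fell by 1.20 ± 0.32 (adjusted p = 0.0431) and SED1 by 1.14 ± 0.31 (adjusted p = 0.0486), both close to the threshold. CCW12 (-1.10 ± 0.33, adjusted p = 0.0633), TIP1 (-0.78 ± 0.25, adjusted p = 0.0797), CCW14 (-0.62 ± 0.28, adjusted p = 0.210) and HSP150 (-0.79 ± 0.37, adjusted p = 0.226) did not pass. Of the 10, 9 had no overlap between groups with hos2 deletion libraries lower, as did 26.7% of all genes. The number called was 2 (SPI1 and PIR3) with the length trend removed, 3 with silent-gene reads subtracted as well, 1 (SPI1) on log2(TPM + 1) and 0 with spike-in sizes. It was 2 without naive replicate 1, 1 without naive replicate 2, 0 without hos2 deletion replicate 1 and 1 without hos2 deletion replicate 2.

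**Figure D4:**
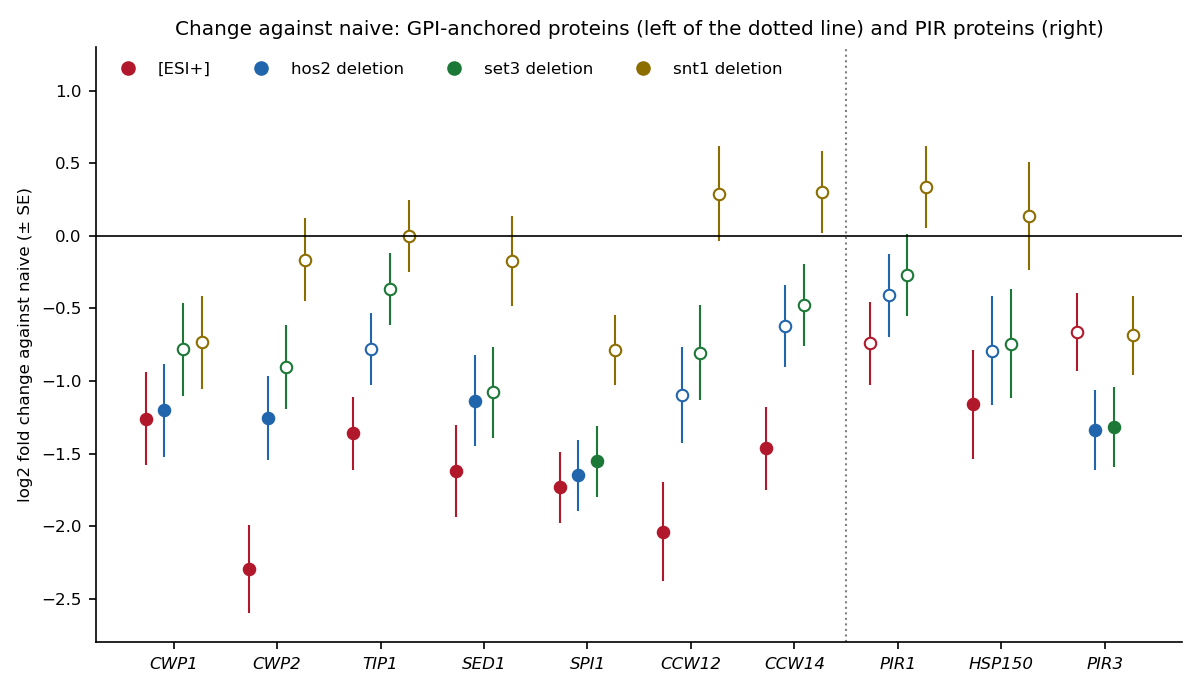
Log2 fold change against naive (vertical axis, ± SE) of the 10 members (horizontal axis), for [ESI+] and the hos2, set3 and snt1 deletions from left to right within each gene, filled where the adjusted p was under 0.05. SPI1 is filled in 3 of 4 comparisons, and no point of the snt1 deletion is filled.

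In the set3 deletion 2 members fell, SPI1 and PIR3, and none rose. SPI1 had 53.9 and 47.8 CPM in the set3 deletion, against 166 and 133 CPM in naive, and fell to 34.1% (-1.55 ± 0.24, adjusted p = 0.00918). PIR3 had 20.1 and 13.0 CPM in the set3 deletion, against 34.9 and 49.2 CPM in naive, and fell to 40.1% (-1.32 ± 0.28, adjusted p = 0.0303). Neither gene's groups overlapped, and the value of PIR3 again rests in part on how reads shared with PIR1 were divided. Of all genes 1.92% were called lower and 0.579% higher.

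The other 8 members had log2 fold changes from -1.08 (SED1, adjusted p = 0.0974) to -0.27 (PIR1, adjusted p = 0.676), and the median over the 10 was -0.79, beside 0.0038 over all genes. CWP1 had 328 and 150.3 CPM in the set3 deletion, against 369 and 455 CPM in naive, so its set3 deletion libraries differed 2.18-fold. Of the 10 members 9 had no overlap with set3 deletion libraries lower, as did 24.5% of all genes. The SPI1 and PIR3 calls were thin in replicates, since the number called was 0 without naive replicate 1, 1 (SPI1) without naive replicate 2, and 0 without set3 deletion replicate 1 or 2. It was also 0 on log2(TPM + 1), 0 with spike-in sizes, 1 with the length trend removed and silent-gene reads subtracted, and 4 by DESeq2, where SED1 and CWP2 passed too.

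In the snt1 deletion 0 of 10 members passed by edgeR, 0 by DESeq2 and 0 by limma-trend, with 3 at an unadjusted p under 0.05. Of all genes 0.391% were called lower and 0.0626% higher after adjustment. Their share at an unadjusted p under 0.05 is not given here. The 3 were SPI1 (-0.79 ± 0.24, adjusted p = 0.298), CWP1 (-0.73 ± 0.32, adjusted p = 0.507) and PIR3 (-0.68 ± 0.27, adjusted p = 0.494). In CPM, these were also the only members whose groups did not overlap, with the snt1 deletion lower, a pattern seen for 17.2% of all genes. In deposited TPM, SED1 and TIP1 also had both snt1 deletion libraries below both naive ones. SED1 had 3674 and 4133 TPM in the snt1 deletion, against 5982 and 5026 TPM in naive. TIP1 had 465 and 442 TPM in the snt1 deletion, against 603 and 497 TPM in naive. SPI1 had 86.9 and 86.6 CPM in the snt1 deletion, against 166 and 133 CPM in naive.

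CCW12 had 8441 and 14276 CPM in the snt1 deletion, against 9413 and 9169 CPM in naive (0.29 ± 0.33, adjusted p = 0.819). HSP150 had 3555 and 6921 CPM in the snt1 deletion, against 3477 and 6039 CPM in naive (0.14 ± 0.37, adjusted p = 0.933). The groups overlapped for both genes, whose snt1 deletion replicates lay far apart. The median over the 10 members was -0.082, with 5 below 0. An F-test over the 3 deletions called 0 of 10 members (0.939% of all genes), with 8 at an unadjusted p under 0.05. DESeq2 called 6 and limma-trend 0. The shares of all genes that go with the counts of 8 and 6 are not given here, so these counts are not read as particular to the members. The smallest adjusted p in the edgeR F-test was 0.0831, for CCW12.

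[ESI+] was also tested directly against each deletion. Against the snt1 deletion 8 members were lower in [ESI+] and none higher (18.3% and 18.7% of all genes). CCW12 had 2196 and 2333 CPM in [ESI+], against 8441 and 14276 CPM in the snt1 deletion (-2.33 ± 0.34, adjusted p = 0.000840). CWP2 had -2.13 ± 0.30 (adjusted p = 0.000709) and CCW14 -1.77 ± 0.29 (adjusted p = 0.00144). CWP1 (-0.52 ± 0.32, adjusted p = 0.203) and PIR3 (0.024 ± 0.27, adjusted p = 0.950) did not pass. Without [ESI+] replicate 2 the number was 4, and on log2(TPM + 1) it was 3 lower and 1 higher.

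Against the set3 deletion 4 members were lower in [ESI+], all of them GPI genes (7.93% of all genes called lower, 8.22% higher). They were CWP2 (-1.39 ± 0.29, adjusted p = 0.0124), TIP1 (-0.99 ± 0.25, adjusted p = 0.0248), CCW12 (-1.23 ± 0.33, adjusted p = 0.0296) and CCW14 (-0.99 ± 0.28, adjusted p = 0.0371). The number was 1 without [ESI+] replicate 1, 0 without [ESI+] replicate 2, 0 without set3 deletion replicate 1 and 2 without set3 deletion replicate 2. With silent-gene reads subtracted it was 2. On log2(TPM + 1) it was 0 lower and 1 higher.

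Against the hos2 deletion only CWP2 was lower in [ESI+], with 504 and 399 CPM in [ESI+] against 928 and 931 CPM in the hos2 deletion (-1.04 ± 0.29, adjusted p = 0.0494). Of all genes 3.69% were called lower and 3.83% higher. That call was lost in each fit that left out 1 library, with the length trend removed and with silent-gene reads subtracted. SPI1 had -0.084 ± 0.24 (adjusted p = 0.844) and CWP1 -0.056 ± 0.32 (adjusted p = 0.924), values within their SE of 0, which does not show the groups to be alike. PIR3 was the one member with both [ESI+] libraries (20.6 and 32.4 CPM) above both hos2 deletion libraries (15.5 and 17.8 CPM), as were 36.2% of all genes, and it did not pass (0.68 ± 0.27, adjusted p = 0.133). These comparisons share the [ESI+] libraries, and those against naive share the naive ones.

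Of 14 genes listed as other PIR and GPI wall proteins, 4 fell and 1 rose in [ESI+]. There 14.5% of all genes were called lower and 13.9% higher. The list was not made to be complete. Their median log2 fold change was -0.50, beside 0.093 over all genes. YLR194C fell by 1.82 ± 0.29 (adjusted p = 0.00181), TOS6 by 1.03 ± 0.18 (adjusted p = 0.00300) and CIS3, the PIR family neighbour of HSP150, by 1.20 ± 0.24 (adjusted p = 0.00578). In the hos2 deletion, where 4.69% of all genes were called lower and 2.96% higher, 1 fell, TOS6 (-0.70 ± 0.18, adjusted p = 0.0397), and 1 rose, PLB3, a phospholipase B (1.04 ± 0.20, adjusted p = 0.0123). PLB3 was the 1 gene called in the set3 deletion (0.89 ± 0.20, adjusted p = 0.0433), where 0.579% of all genes were called higher. In the snt1 deletion 0 passed by edgeR, with 2 at an unadjusted p under 0.05, where 0.391% of all genes were called lower and 0.0626% higher.

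Of 34 genes of wall assembly and remodelling, 7 fell and 4 rose in [ESI+] (median -0.21), counts near the shares of 14.5% lower and 13.9% higher over all genes. KRE1, of beta-1,6-glucan assembly, fell by 1.51 ± 0.23 (adjusted p = 0.00149) and SIM1, of the SUN family, fell by 1.41 ± 0.31 (adjusted p = 0.00797), while KRE5, also needed for beta-1,6-glucan, rose by 0.94 ± 0.22 (adjusted p = 0.00957). In the hos2 deletion KRE1 fell by 0.85 ± 0.23 (adjusted p = 0.0442) and CHS1, a chitin synthase of wall repair, rose by 1.02 ± 0.27 (adjusted p = 0.0404). In the set3 and snt1 deletions 0 of the 34 passed by edgeR, with 2 and 3 at an unadjusted p under 0.05.

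Of 18 genes of cell wall integrity signalling, 4 rose and 2 fell in [ESI+] (median 0.097, beside 0.093 over all genes), where 13.9% of all genes were called higher and 14.5% lower. In this list 0 passed in the hos2, set3 and snt1 deletions by edgeR, with 5, 2 and 1 at an unadjusted p under 0.05. There 4.69, 1.92 and 0.391% of all genes were called lower and 2.96, 0.579 and 0.0626% higher. Beside these shares, 0 of 18 does not set the list apart. The shares of all genes at an unadjusted p under 0.05 are not given here. SWI4, the DNA-binding subunit of the cell cycle factor SBF, rose by 1.21 ± 0.26 (adjusted p = 0.00703). ROM1, an exchange factor for Rho1, rose by 1.31 ± 0.33 (adjusted p = 0.0151), and WSC2, a wall stress sensor, fell by 1.26 ± 0.35 (adjusted p = 0.0218). The kinase SLT2 had 0.11 ± 0.28 (adjusted p = 0.798) and RLM1 had -0.45 ± 0.23 (adjusted p = 0.165) in [ESI+], and neither passed. SLT2 and RLM1 were chosen for mention by their place in the pathway, after their values were seen.

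Of 26 general stress genes, 6 fell in [ESI+] (median -0.57), 11 in the hos2 deletion (median -1.01), 4 in the set3 deletion (median -0.66) and 0 in the snt1 deletion by edgeR (median -0.18, with 5 at an unadjusted p under 0.05), and none rose. The shares of all genes called lower were 14.5% in [ESI+], 4.69% in the hos2 deletion, 1.92% in the set3 deletion and 0.391% in the snt1 deletion, and the medians over all genes were 0.093, 0.027, 0.0038 and -0.0044 in the same order. HOR7 fell by 1.24 ± 0.25 (adjusted p = 0.00547) in [ESI+], by 1.69 ± 0.25 (adjusted p = 0.00406) in the hos2 deletion and by 1.33 ± 0.25 (adjusted p = 0.0220) in the set3 deletion. SOD2, the mitochondrial superoxide dismutase, had -1.65 ± 0.35 (adjusted p = 0.00709) and TFS1, an inhibitor of carboxypeptidase Y, -1.46 ± 0.33 (adjusted p = 0.00912) in [ESI+]. GLC3, the glycogen branching enzyme, had -2.03 ± 0.28 (adjusted p = 0.00211) in the hos2 deletion and -1.36 ± 0.27 (adjusted p = 0.0253) in the set3 deletion, and did not pass in [ESI+] (0.023 ± 0.27, adjusted p = 0.957). GAC1, a regulatory subunit of protein phosphatase, was chosen after its values were seen as another gene called in the hos2 deletion (-1.48 ± 0.28, adjusted p = 0.0119) and the set3 deletion (-1.18 ± 0.28, adjusted p = 0.0493) but not in [ESI+] (0.37 ± 0.27, adjusted p = 0.314). HSP26, a small heat shock protein, had -2.60 ± 0.43 (adjusted p = 0.00778) in the hos2 deletion and -1.96 ± 0.42 (adjusted p = 0.0375) in the set3 deletion. SPI1 and HSP150 also belong to the genes known to respond to general stress, and the part of this list in the members' values was not tested.

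The gene nearest to each member in pattern was found by the root mean square difference of log2 CPM, centred per gene over the 10 libraries, among 3881 genes. Only CWP2 had another member nearest to it, CCW12, at 0.217 log2 units. The closest matches were MOG1 to CCW14 at 0.0914, FLC2 to PIR1 at 0.108, AIM11 to TIP1 at 0.109 and PCM1 to HSP150 at 0.118. Next were PTK1 to SED1 at 0.161 and MXR2 to CCW12 at 0.178, followed by AAC1 to SPI1, which lay between MXR2 and the CWP2 pair. AIM19 to CWP1 and PCS60 to PIR3 were loosest, both at 0.254, so these 2 had no gene closer than that.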

How the data were processed

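Messenger RNA of 10 libraries was bound to beads by its poly(A) tail, copied there, sheared, made into libraries with a kit for DNA and read as paired ends, per the labels' protocols; strand is not stated, so reads of overlapping genes may not be told apart. The deposited tables hold expected counts and TPM per target, per the file headers, made with kallisto 0.44 on build R64, per the submitters' processing notes. The deposited length and effective length of each target were used as other values.

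Expected counts were rounded, spike-ins set aside and genes kept by filterByExpr over the 5 groups. edgeR 4.0.16 in R 4.3.3 was fitted with TMM library sizes and 1 coefficient per group over all 10 libraries, robust and quasi-likelihood, two-sided, with Benjamini-Hochberg adjustment over 6390 genes at 0.05. An SE is the fold change over the square root of F. CPM use TMM library sizes. The fit was tested on simulated data. Alternatives were DESeq2 1.42.0, its size factors, spike-in sizes, limma-trend (3.58.1) on log2(TPM + 1), no filter, a mean of 10 CPM, a fit of the groups compared alone, a replicate block, a length trend offset (loess span 0.5), subtraction of silent-gene reads (genes of at least 300 bases under 0.2 CPM per kb in other groups), both together, and each library left out. Fits without 1 library filter anew. TPM sums were also rescaled without spike-ins and ribosomal RNA.

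All members are named. Of each list the called genes with the smallest p are named, up to 3 per comparison. The members, lists and alternatives were chosen with earlier results of these data known. Nearest genes need a mean of at least 5 CPM and no shared reads, except members. Results for 1 list of genes, 1 motif and 2 upstream regions are not reported here.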

Additional observations from a re-analysis of the deposited data

How the results depend on the processing

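Leaving out 1 library at a time, the number of members called ran from 3 to 9 in [ESI+] against naive, 0 to 2 in the hos2 deletion, 0 to 1 in the set3 deletion, 0 in [ESI+] against the hos2 deletion, 0 to 2 against the set3 deletion, 4 to 8 against the snt1 deletion and 0 to 5 in the F-test over deletions. Spike-in library sizes gave 0 in all of these, with 32 of all genes called in [ESI+] against naive. The spike-in share was 0.946 and 5.19% in the 2 [ESI+] libraries, and its part in these counts was not tested. On log2(TPM + 1) the number was 1 for the hos2 deletion and 0 for the set3 deletion, both against naive. For [ESI+] it was 0 against the hos2 deletion, 1 (called higher) against the set3 deletion and 4 (3 lower and 1 higher) against the snt1 deletion. DESeq2 gave 4 in the set3 deletion, 3 in [ESI+] against the hos2 deletion and 6 in the F-test. Removing the length trend gave 2 in the hos2 deletion and 0 in [ESI+] against the hos2 deletion. Subtracting silent-gene reads gave 0 there and 2 against the set3 deletion. Both together gave 3 in the hos2 deletion, 1 in the set3 deletion and, for [ESI+], 0 against the hos2 deletion and 1 against the set3 deletion. [ESI+] against the hos2 deletion also gave 0 with DESeq2 size factors in edgeR, 0 at a mean of 10 CPM and 5 with only those groups fitted. The sample titles give only a replicate number in common across groups. The correlations of replicate differences ran from -0.073 ([ESI+] with naive) to 0.35 (snt1 deletion with naive) over 10 pairs of groups. They do not settle whether replicates of a number shared a batch. With a replicate block the number was 10 for [ESI+], 7 for the hos2 deletion and 3 for the set3 deletion against naive, 2 in [ESI+] against the hos2 deletion and 2 in the F-test. Apart from spike-in sizes, the shares of all genes called in these alternative fits are not given beside the counts. A changed count is therefore not read as particular to the members. Without spike-ins and ribosomal RNA the summed TPM were 23719 ([ESI+]), 29260.3 (hos2 deletion), 29409 (set3 deletion), 43782 (snt1 deletion) and 47129 (naive).

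Of 600 fold changes under alternatives 492 kept their direction and side of the threshold, 68 lost the call, 15 gained it and 25 changed sign, none of them called before. In [ESI+] these were PIR1 (0.045 with spike-in sizes, 0.030 on log2(TPM + 1)) and PIR3 (0.074 on log2(TPM + 1)), and in the set3 deletion PIR1 (-0.54 to 0.071 over the fits without 1 library, above 0 without naive replicate 2). All others were in the snt1 deletion. Spike-in sizes gave TIP1 -0.64, CCW12 -0.45, CCW14 -0.27, PIR1 -0.19 and HSP150 -0.38, and log2(TPM + 1) gave TIP1 -0.27 and HSP150 -0.19. TIP1 had -0.0028 with no filter, -0.087 at a mean of 10 CPM, -0.0093 with silent-gene reads subtracted and -0.021 with only the groups compared. CWP2 had 0.036 with the length trend removed and 0.010 with silent-gene reads subtracted too. Over the fits without 1 library, TIP1 ran from -0.14 to 0.14, CWP2 from -0.41 to 0.097, SED1 from -0.46 to 0.078, CCW12 from -0.13 to 0.62 and HSP150 from -0.41 to 0.58. The causes were not tested. With 2 libraries a group, and fits that leave a group with 1 assuming that it varies like the others, a missed threshold does not show equal levels.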
